A study of Mus musculus with 2 samples.

Results

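The 83 genes described here encode the proteins of the cytosolic ribosome in the mouse. They are every gene whose symbol in the deposited gene list has the form of a small-subunit (Rps), large-subunit (Rpl) or stalk (Rplp) protein name, together with Rpsa, which gives 32 small-subunit and 51 large-subunit symbols of 31053 genes. The choice used names alone and no measured value. Of the 83 genes, 82 had at least 1 unique molecular identifier (UMI, a tag that marks a single captured mRNA molecule).

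Cytosolic ribosomes are built from ribosomal RNA and one copy of nearly every one of these proteins, and they carry out all protein synthesis outside the mitochondria. The mRNAs of ribosomal proteins typically start with a C followed by a run of pyrimidines, the 5′ terminal oligopyrimidine tract, through which mTOR and the RNA-binding protein LARP1 set their translation and stability together. Resting lymphocytes have little cytoplasm and few other abundant mRNAs, whereas macrophages, monocytes and fibroblasts carry large amounts of lysosomal, secretory or matrix mRNA. Some members have a paralog that can take their place in the ribosome. Rps27l, the paralog of Rps27, is a target gene of the tumour suppressor p53, and Rpl22l1 is the paralog of Rpl22.

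The cells came from subcutaneous tumours of the mouse oral cancer line MTC-Q1 in C57BL/6 mice, with 1 library for each of 2 groups. One group carried unmodified MTC-Q1 cells (WT) and the other MTC-Q1 cells lacking miR-21 (miR-21 KO). In both groups the tumours grew for 2 weeks, cisplatin, a DNA-crosslinking drug, was given at 5 mg/kg, and cells were taken 72 h later, freed of dead cells and selected with CD45 beads. The labels do not say how many mice, or which knockout clones, stand behind a library. There was no untreated tumour, so every value is from cisplatin-treated mice. Both groups sit in 1 matrix, where a barcode ends in -1 or -2, and nothing used here says which ending is WT and which is miR-21 KO. Cells ending in -1 are named library 1 and those ending in -2 library 2 below, so a contrast of the libraries is not one of WT with miR-21 KO in either direction. With 1 library per group nothing was tested. The exact 95% intervals given reflect counting error, and not the spread between tumours.

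Library 1 held 5320 barcodes with a median of 7169 UMIs, of which 4977 were kept, and library 2 held 7194 with a median of 15247.5, of which 6740 were kept. Mitochondrial genes took 3.73% and 2.23% of UMIs, and Gm42418, a transcript that overlaps ribosomal RNA, took 25506 and 7448 CPM, counts scaled to a total of 1000000 UMIs. Cell types were set by marker gates that hold no ribosomal protein gene. The gates found 11 types with at least 50 cells in library 1, 8 in library 2 and 6 in both: effector-type CD8 T, gamma-delta T, NK, macrophage, monocyte and fibroblast. Naive-type T cells and B cells were almost confined to library 1, with 612 naive-type CD4 T, 922 naive-type CD8 T and 411 B cells there against 1, 6 and 0 in library 2. Of the markers held out of the gates, the 5 macrophage genes summed to 19460 and 25035 CPM in macrophages and to 54.0 and 188 CPM in NK cells. Others separated the gates less well: the monocyte gate of library 1 had more of the held-out macrophage genes (3658 CPM) than of the monocyte genes (2975 CPM), and the held-out effector genes were not highest in effector-type CD8 T cells (908 and 972 CPM, against 1095 and 1227 CPM in macrophages). Fibroblasts are cells that CD45 selection should remove. Libraries 1 and 2 shared 8 barcode sequences.

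Ribosomal protein genes took 33.1% of all UMIs in library 1 and 24.8% in library 2, but within the 6 types shared by the libraries the values lay close together. Naive-type CD8 T cells had the highest share, 42.9% in library 1. Naive-type CD4 T cells followed at 41.7% and B cells, the antibody-producing lineage, at 35.1%. Regulatory T cells, at 31.2%, and activated CD4 T cells, at 28.6%, were lower in library 1. The regulatory T gate set no limit on naive markers, and the activated CD4 T gate asked for few of them but for no activation marker. Held-out naive genes summed to 595 and 515 CPM in these gates, against 2123 CPM in naive-type CD4 T cells and 338 CPM in effector-type CD8 T cells. Both gates may thus hold naive-like cells. The few regulatory T and activated CD4 T cells of library 2 (30 and 32) had 24.5% and 24.6%. Effector-type CD8 T cells, the cytotoxic T cells, had 31.9% in library 1 and 30.2% in library 2. Gamma-delta T cells had 30.9% and 30.3%. NK cells, the innate cytotoxic lymphocytes, had 30.9% and 32.8%. These 3 lymphoid types thus lay close together in both libraries.

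Myeloid cells had the lowest shares. Macrophages, the phagocytes of the tumour, had 15.9% in library 1 and 17.1% in library 2. Monocytes, their blood-borne precursors, had 16.3% and 18.6%. Migratory dendritic cells had 18.9% and cDC2, the dendritic cells that mainly prime CD4 T cells, 23.4%, both counted in library 2. Fibroblasts lay between the myeloid and the lymphoid types at 24.9% and 25.9%. Lymphoid and myeloid types did not overlap in summed share in either library, and NK cells (22.1 to 36.8% from the 10th to the 90th percentile of cells, library 1) also stood apart from macrophages (10.0 to 20.9%). Activated CD4 T cells, at 16.1 to 43.4%, and regulatory T cells, at 16.9 to 43.0%, did overlap with macrophages. In library 2, cDC2 (16.9 to 29.9%) overlapped with NK cells (27.0 to 37.8%) and effector-type CD8 T cells (22.8 to 36.9%). Migratory dendritic cells (12.7 to 25.9%) and monocytes (10.4 to 25.2%) of library 2 also reached into effector-type CD8 T cells. Monocytes of library 1 (9.87 to 22.6%) reached into NK cells.

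**Figure D1:**
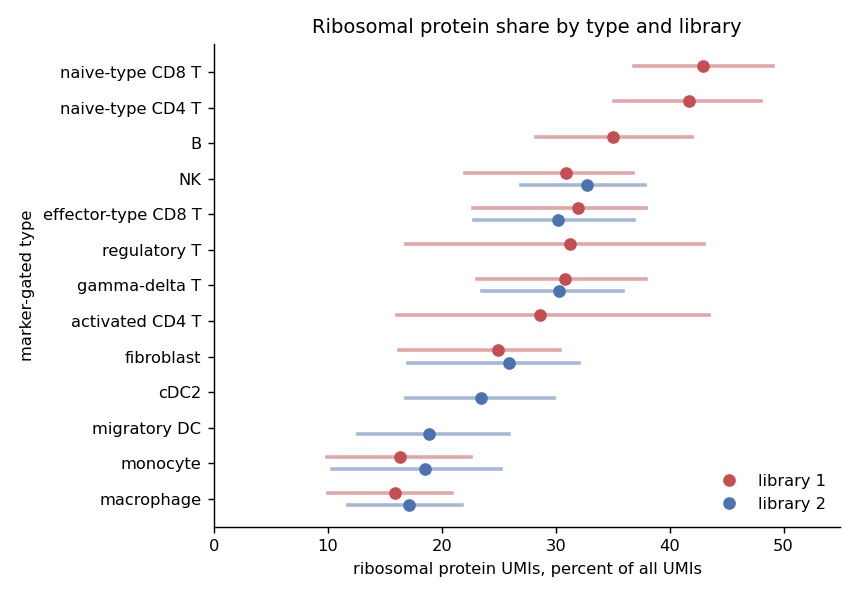
Percent of all UMIs that fell on the 83 ribosomal protein genes (x axis) in each marker gate with at least 50 cells (y axis), library 1 in red and library 2 in blue. Points are the share of summed UMIs and lines span the 10th to 90th percentile of single cells; naive-type T cells lie above 41%, macrophages and monocytes between 15.9 and 18.6%.

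As log2 ratios to macrophages of the same library, the share was 1.39 higher in naive-type CD4 T cells (interval 1.386 to 1.393, library 1). It was 0.96 higher in NK cells of library 1 and 0.94 higher in those of library 2. Monocytes differed from macrophages by 0.04 and 0.12 (-0.07 in library 1 with free RNA subtracted), and fibroblasts by 0.65 and 0.60. Naive-type CD8 T cells stood 0.43 above effector-type CD8 T cells of the same library, and naive-type CD4 T cells 0.42 above regulatory T cells. Lymphoid types and fibroblasts thus stood much further from macrophages than the libraries stood apart within a shared type. Monocytes did not. Library 1 against library 2 gave -0.10 in macrophages, -0.09 in NK cells, -0.18 in monocytes, -0.06 in fibroblasts, 0.02 in gamma-delta T cells and 0.08 in effector-type CD8 T cells. Under other settings this ratio ran from -0.06 (mitochondrial genes and Gm42418 left out of the total) to -0.17 (free RNA subtracted) in macrophages, and from -0.06 to -0.19 (cells of 5000 to 10000 UMIs) in NK cells.

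Naive-type T cells and macrophages had ribosomal protein UMIs per cell of a like size. In library 1 the median was 2414.5 in naive-type CD4 T cells, 2950.5 in naive-type CD8 T cells and 2541.5 in macrophages. All other UMIs had medians of 3267, 3763 and 13893.5. Naive-type T cells and macrophages thus differed mainly in the UMIs outside the ribosomal protein genes. NK cells had both more ribosomal protein UMIs (3859.5 in library 1, 5480.5 in library 2) and fewer other UMIs (8283.5 and 10863.5) than macrophages. Fibroblasts had by far the most ribosomal protein UMIs per cell, 10527.5 and 10991.5, under a total of other UMIs of 36611 and 32400. UMIs per cell depend on capture as well as on the RNA a cell holds, and these cannot be told apart. Among cells of 5000 to 10000 UMIs alone, the log2 ratio to macrophages was 1.63 for naive-type CD4 T cells, and 1.01 and 1.08 for NK cells.

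**Figure D2:**
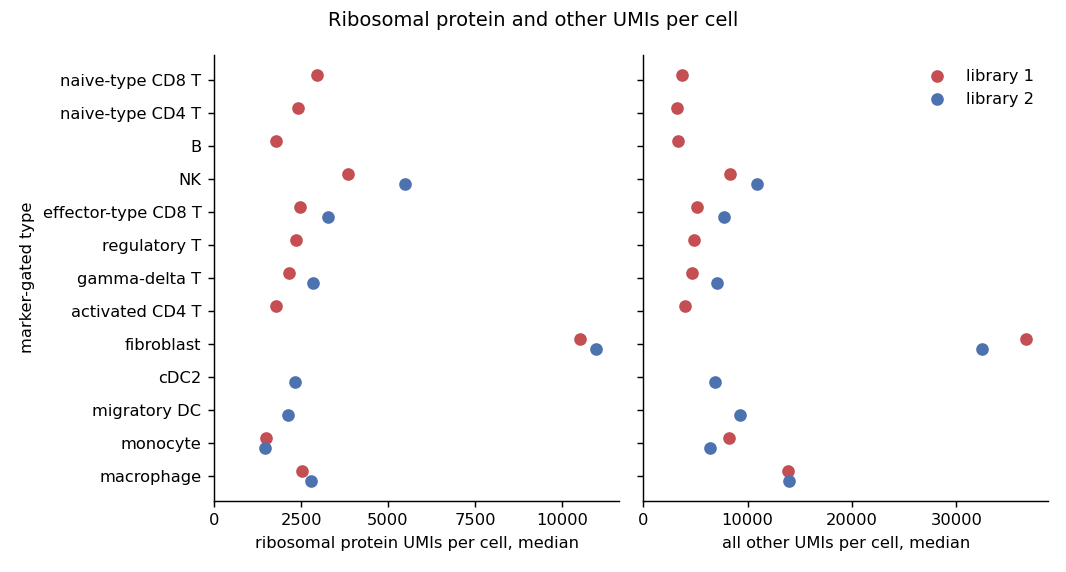
Median UMIs per cell on ribosomal protein genes (left) and on all other genes (right) for each marker gate, library 1 in red and library 2 in blue. Naive-type CD4 T cells and macrophages of library 1 have close ribosomal protein medians (2414.5 and 2541.5) but differ in other UMIs (3267 and 13893.5).

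Nearly the whole gene set moved together between types. A gene was called different when its CPM differed at least 1.5-fold and the counting interval excluded equality, over genes with at least 100 UMIs in both groups together. In naive-type CD4 T cells against macrophages, 76 of the 80 members measured were called higher, where 20.1% of all 7424 genes were, and 2 were called lower, where 49.1% of all genes were. In NK cells against macrophages of library 1, 72 members were higher (background 21.5%) and 1 lower (33.3%). In library 2, 71 were higher (21.8%) and 1 lower (36%). The same 70 members were called higher in NK cells of both libraries. The members' median log2 ratio was 1.37, 0.99 and 0.95 in the 3 comparisons, beside -0.53, -0.05 and -0.15 over all genes measured. With size factors that set the median gene to no change, the naive comparison had 78 members higher and 2 lower, and 32.0% of all genes higher and 35.3% lower.

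Against this common shift, single members were set by their ratio relative to the summed ribosomal protein UMIs. In NK cells against macrophages, 74 of 80 members stayed within 1.5-fold of the set in each library. In naive-type CD4 T cells against macrophages 70 did. The pattern of the departures recurred between the libraries. In the NK comparison, 71 of 80 members lay on the same side of the set in library 1 and library 2. Across the 80 genes Pearson's r was 0.96 and Spearman's rho 0.94. These genes share cells and depth and are not independent replicates. Neither the count nor the correlation was computed over all genes, so the members are not shown to differ from other genes in this.

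**Figure D3:**
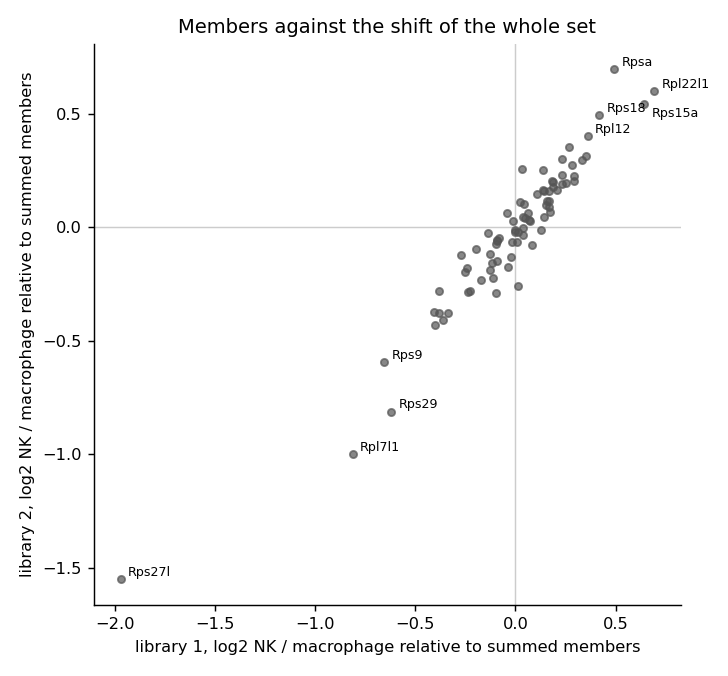
Log2 ratio of NK cells to macrophages for each of the 80 measured members, relative to the summed members, in library 1 (x axis) and library 2 (y axis); each point is a gene and grey lines mark the shift of the whole set. Rps27l lies far below the set (-1.97 and -1.55), with Rpl7l1, Rps29 and Rps9, and Rpl22l1, Rps15a and Rpsa lie above it.

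Rps27l departed most. It was at 547 CPM in macrophages of library 1 and 612 CPM in those of library 2. NK cells had 271 and 400 CPM. Naive-type CD4 T cells had 54.2 CPM and B cells 91.8 CPM, the low end of the range. Rps27l was thus the one member called lower in NK cells than in macrophages of both libraries, with log2 ratios of -1.02 (-1.15 to -0.89) and -0.61 (-0.65 to -0.57); under size factors that set the median gene to no change, the ratio in library 2 no longer passed 1.5-fold. In naive-type CD4 T cells it was lower by a log2 ratio of -3.34 (-3.54 to -3.13). In CPM Rps27 moved the opposite way, with 11417 CPM in naive-type CD4 T cells and 2396 CPM in macrophages of library 1. NK cells had 4347 and 3002 CPM of Rps27, and macrophages of library 2 had 1914 CPM. Relative to the set, Rps27 stood 0.86 above it in naive-type CD4 T cells but at -0.10 and -0.29 in NK cells. The NK value of library 1 changed sign under some settings given at the end.

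The pair is shown by its start sites, since both proteins take the same place in the ribosome. Their CPM also went in opposite directions between lymphocytes and macrophages. Each line gives 15 bases before and 15 from the RefSeq start site on (GRCm38.p6, gene strand, 5′ to 3′), with unbroken runs of at least 6 pyrimidines in capitals. RefSeq lists 1 start for Rps27 and 2 for Rps27l, which lies on chromosome 9 (gene span chr9:66946086-66949516).
Rps27, chr3:90213634-90213663, minus strand: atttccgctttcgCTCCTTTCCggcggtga
Rps27l first start, chr9:66946071-66946100, plus strand: ccaCTCCTCCCCgccgcctctatcccggaa
Rps27l second start, chr9:66946398-66946427, plus strand: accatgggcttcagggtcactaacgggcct
Rps27 carries its pyrimidine run across the start site. The run of Rps27l lies before the first start and none lies at the second.

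Within the pair, Rps27l made up 0.473% of UMIs in naive-type CD4 T cells (0.411 to 0.541%), 0.683% in naive-type CD8 T cells and 0.928% in B cells. It made up 2.48% and 8.31% in effector-type CD8 T cells of library 1 and library 2. NK cells had 5.86% and 11.8%, and macrophages 18.6% and 24.2%. Monocytes, at 8.72% and 10.7%, stayed below macrophages in both libraries. Fibroblasts had 12.2% in each. The highest share was in migratory dendritic cells of library 2, at 37.4% (35.9 to 38.9%) with 1667 CPM of Rps27l. Free RNA was estimated at 36.4% of UMIs in that gate, 6.4% and 6.7% in macrophages, from held-out T, NK and B cell markers. It was 12.0% in monocytes of library 2, which had fewer UMIs per cell. Any mRNA of these markers that a gate makes itself counts as free RNA here, so the estimate can be too high. The part of free RNA in these shares was not tested. In the 3 shared lymphoid types and in macrophages and monocytes the share of the pair was higher in library 2, while fibroblasts did not differ beyond counting error. Relative to the set, Rps27 was higher in library 1 in all of these (log2, library 1 to library 2). In macrophages and monocytes it was higher by 0.43 and 0.44, where Rps27l itself differed by -0.06 and 0.11. In effector-type CD8 T, gamma-delta T and NK cells Rps27 was higher by 0.81, 0.73 and 0.62. There Rps27l was lower in library 1, at -1.02, -0.42 and -0.48. Mitochondrial and Gm42418 UMIs also differed between the libraries, and their part in this was not tested. Part of the Rps27 reads may sit under Rps27rt, an annotated copy with the same 3′ end, which had 40343 UMIs against 785715 for Rps27.

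Rpl22l1 followed another order. NK cells had the highest level among the 6 types found in both libraries, 1018 and 1179 CPM, while macrophages had 325 and 406 CPM and monocytes 326 and 410 CPM. It made up 32.9% and 34.9% of Rpl22l1 and Rpl22 UMIs in NK cells, 21.9% and 24.1% in macrophages and 21.4% and 21.7% in monocytes. Naive-type CD4 and CD8 T cells of library 1 had 31.9% and 33.5%. The shares of the 2 paralogs in their pairs thus peaked in different gates. That of Rps27l was highest in macrophages and migratory dendritic cells (60 cells, library 2), and that of Rpl22l1 in NK and naive-type T cells. In CPM of Rps27l, fibroblasts (500 and 487 CPM) came next after macrophages (547 and 612 CPM) among the 6 types found in both libraries.

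**Figure D4:**
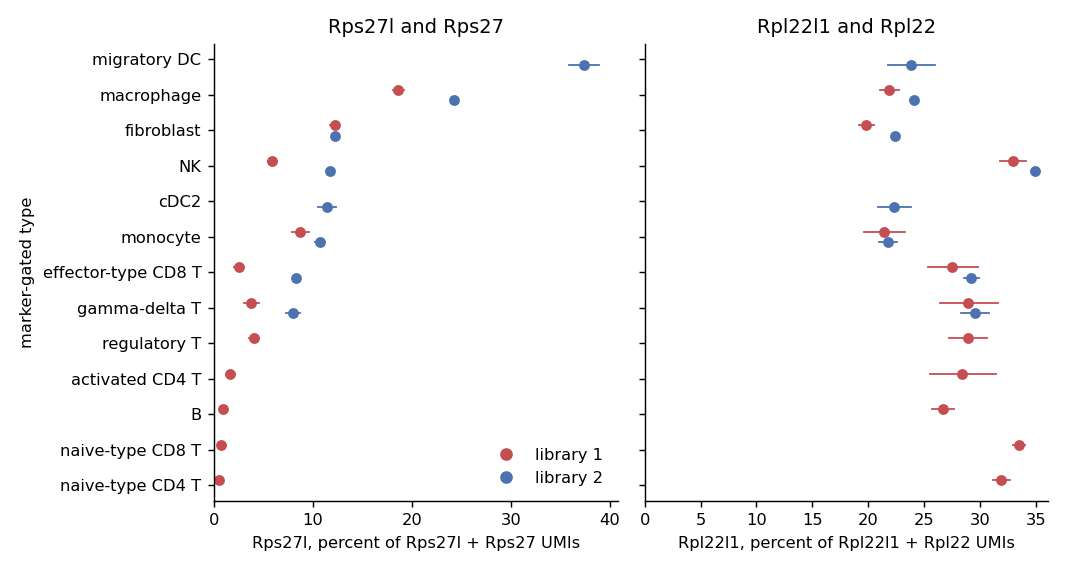
Share of the paralog in the UMIs of the pair, Rps27l with Rps27 (left) and Rpl22l1 with Rpl22 (right), by marker gate; points are shares, lines are exact 95% intervals, library 1 in red and library 2 in blue. Rps27l ranges from 0.473% in naive-type CD4 T cells to 37.4% in migratory dendritic cells, and Rpl22l1 reaches 32.9 and 34.9% in NK cells.

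The remaining paralogs were scarce. Rpl7l1, which resembles Rpl7, had 48.5 and 69.0 CPM in macrophages, 53.5 and 66.1 CPM in NK cells and 108 and 94.9 CPM in fibroblasts. In naive-type CD4 T cells it had 18.2 CPM and was the second member called lower than in macrophages (log2 ratio -1.41, -1.80 to -1.03). Rpl39l, best known from the testis, had 44 UMIs in all of library 1 and 173 in library 2, of which 13 and 76 were in fibroblasts. Rpl3l, the paralog of Rpl3 in striated muscle, had 30 and 137 UMIs. Rpl10l, a retrogene used in male germ cells, had 0 UMIs, which by a floor of 3 counts per library allows up to 0.0579 CPM in library 1 and 0.0223 CPM in library 2.

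Of the members, 7 were not called higher in NK cells than in macrophages of either library: Rps27l, Rpl7l1, Rps29, Rps9, Rps19, Rpl35a and Rpl7a. Rps29, a small zinc-binding protein of the subunit head, had 7874 and 6412 CPM in NK cells and 6237 and 5883 CPM in macrophages, a log2 ratio of 0.34 and 0.12. Rps9, which helps keep decoding accurate, had 4154 and 4377 CPM in NK cells against 3370 and 3449 CPM in macrophages. Relative to the set, Rps29 stood at -0.62 and -0.81 and Rps9 at -0.65 and -0.59. At the other end stood Rpsa, a small-subunit protein that is also described as a laminin receptor, with 5057 and 6159 CPM in NK cells against 1851 and 1983 CPM in macrophages, and Rps15a, with 6025 and 6682 CPM against 1987 and 2391 CPM. Rps18, of the head of the small subunit, and Rpl12, which forms the base of the stalk, were also above the set, by 0.42 and 0.50 and by 0.36 and 0.40.

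Some members on both sides of the set have pyrimidine runs near their RefSeq start. Rpl22 has none of 6 bases in this window, with longest runs of 5 and 4 at its 2 starts. How many members have such a run was not counted. Windows are shown for 3 members above the set and for Rps9 below it, in the same layout.
Rps15a, chr7:118116133-118116162, minus strand: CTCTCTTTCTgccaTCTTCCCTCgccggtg
Rps18, chr17:33955651-33955680, minus strand: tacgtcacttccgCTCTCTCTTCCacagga
Rpl22l1, chr3:28805493-28805522, plus strand: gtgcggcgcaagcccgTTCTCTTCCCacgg
Rps9, chr7:3704026-3704055, plus strand: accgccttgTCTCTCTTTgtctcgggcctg
RefSeq start windows were found for 63 of the 83 members. Within 25 bases on either side of the start, CTTTCC on the gene strand occurred in 11 of the 63 (17.5%) and in 2.88% of 26962 other genes. In the 300 bases around the start, CCGGAAG, the core of ETS-factor sites, occurred on either strand in 26 of 63 (41.3%) and in 9.85% of other genes. A match says only that these letters are present.

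In naive-type CD4 T cells against macrophages the departures from the set were wider. Rpl12 stood 1.05 above the set, at 7261 CPM against 1339 CPM. Rps27 stood 0.86 above it and Rps16 0.60 above it. Below the set stood Rpl7a at -0.97, Rpl10 at -0.87 and Rpl41, the smallest ribosomal protein, at -0.80. Rpl7a and Rpl10 were, with Rps27l and Rpl7l1, the 4 members not called higher. Reads of Rpl7a, Rpl10, Rpl41 and Rps27 can be split with annotated copies. Transcript ends of 11 members are mostly shared with a copy in the gene list. Adding the copies' UMIs moved no ratio of these members relative to the set by more than 0.0433 (log2). Reads that were counted neither for a member nor for its copy cannot be seen in this way, so an effect of the copies stays possible.

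Across the 6 types found in both libraries, the makeup of the members was fairly even. The share of a member in all ribosomal protein UMIs differed between its highest and its lowest type by a median of 1.39-fold in library 1 and 1.44-fold in library 2, over 80 members. It differed at least 1.5-fold in both libraries for 24 members, of which 18 had the same highest type in both. For 4 members it differed at least 2-fold in both. These spreads were not computed over all genes, so the members are not shown to be more or less even than other genes. Among the steadiest was Rpl11, which binds the 5S RNA and, when free, the p53 regulator MDM2, with 1.10-fold in each library. With its partner Rpl5 it took 1.60 and 1.68% of the members' UMIs in macrophages and 1.60 and 1.58% in NK cells.

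Among these members fibroblasts were most often at an extreme, lowest for 11 of the 24 in both libraries. How often fibroblasts are at an extreme over all genes was not counted. Of the 18 members with the same highest type in both libraries, 7 were highest in fibroblasts (Rps2, Rplp0 and Rplp1 among them), 5 in a lymphoid type (Rps15a, Rps3 and Rpl22l1 among them), 4 in macrophages (Rps27l, Rps29, Rpl37a and Rps19) and 2 in monocytes (Rps9 and Rpl35a). Rps2, at the entry of the mRNA channel, made up 2.84% of the members' UMIs in fibroblasts of both libraries and 1.17 and 1.23% in monocytes. Rps29 made up 3.92 and 3.44% in macrophages and 1.87 and 1.63% in fibroblasts. The stalk genes Rplp0, Rplp1 and Rplp2, whose proteins recruit the elongation factors, together took 6.41 and 6.02% in fibroblasts, 5.04 and 4.55% in macrophages and 4.52 and 4.35% in NK cells. Rplp2 did not share this: it had 2429 and 2558 CPM in fibroblasts and 3607 and 3604 CPM in NK cells. Small-subunit genes took 48.8% of the members' UMIs in naive-type CD4 T cells, 44.6 and 45.0% in NK cells and 42.4 and 42.9% in fibroblasts.

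Rps24 and Rps29 had the largest UMI counts in library 1, with 3.02 and 3.19% of the members' UMIs, and Rpl41 in library 2, with 2.88%. A UMI stands for 1 captured 3′ end whatever the transcript's length, and capture can differ between genes. Rps27a, which is made as a fusion with ubiquitin, took 1.56 and 1.80% in macrophages, 1.43 and 1.58% in NK cells and 2.15 and 2.17% in fibroblasts. The 18 genes that are mutated in Diamond-Blackfan anaemia, an inherited failure of red cell production, moved with the rest: 18, 15 and 14 were called higher in the naive, NK library 1 and NK library 2 comparisons (20.1%, 21.5% and 21.8% of all genes were) and none lower, with medians of 1.34, 0.95 and 0.93.

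Between the libraries, some members differed in the same direction in all 6 types. In macrophages, none of the 80 members passed 1.5-fold in either direction, against backgrounds of 9.11% of genes higher in library 1 and 5.78% lower. In NK cells Rpl13a was called higher (background 14.2%) and none lower (3.43%). Relative to the set and with no fold limit, 21 members were higher in library 1 in all 6 types and 22 were lower in all 6. This was not counted over all genes, so the members are not shown to differ from other genes in this. Rpl13a, a member of the interferon-gamma-activated translation inhibitor complex, had 244 CPM in library 1 and 167 CPM in library 2 in macrophages, and 476 and 267 CPM in NK cells. Relative to the set, Rpl13a was higher in library 1 in every type, from 0.54 in monocytes to 1.11 in gamma-delta T cells.

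Rpl35 was also higher relative to the set in all 6 types, at 0.51 in macrophages, 0.53 in NK cells and 0.74 in fibroblasts. Rps28 and Rpl5 were higher too, at 0.39 and 0.32 in macrophages and 0.32 and 0.31 in NK cells. On the low side stood Rpl29, of the large subunit, at -0.33 in macrophages, -0.17 in NK cells and -0.070 in fibroblasts. Across the 80 members the ratio in macrophages and the ratio in NK cells had a Pearson's r of 0.88 (Spearman's rho 0.87). The r was 0.63 (rho 0.62) for macrophages and fibroblasts and 0.54 (rho 0.48) for NK cells and fibroblasts. Neither was computed over all genes. The types share their library, its preparation and its depth, and mitochondrial and Gm42418 UMIs differed between the libraries as given above; their part was not tested. Library and group cannot be told apart.

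**Figure D5:**
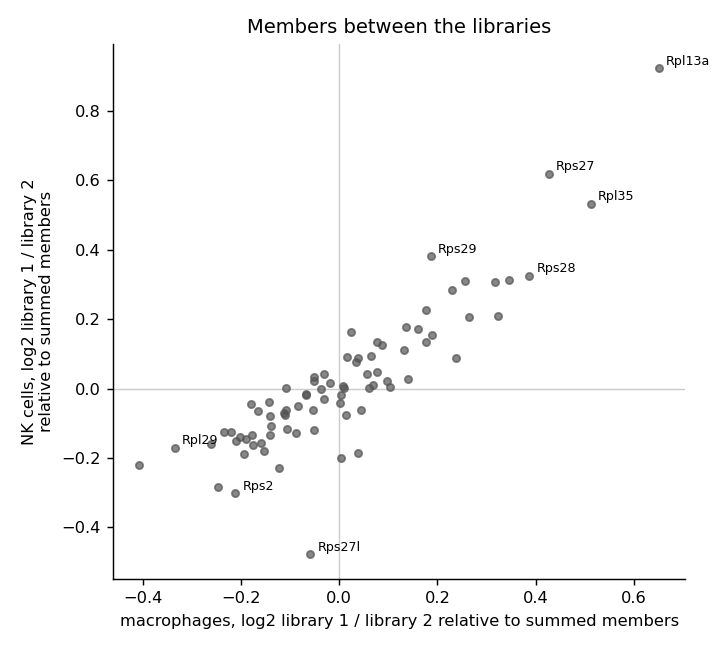
Log2 ratio of library 1 to library 2 relative to the summed members, in macrophages (x axis) and NK cells (y axis), for the 80 members measured in all 6 shared types; each point is a gene. Rpl13a, Rps27 and Rpl35 lie high in both types and Rps2 and Rpl29 low in both.

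Cells in division were compared with cells outside it, by 6 cycle markers, in the 4 types of library 2 with at least 50 cells in each state. Cycling effector-type CD8 T cells had a lower ribosomal protein share, 29.0% against 32.0%, and so did cycling NK cells, 31.3% against 33.7%. Cycling macrophages had a higher share, 18.5% against 16.6%, and so did cycling fibroblasts, 26.9% against 24.7%. Ribosomal protein UMIs per cell were higher in the cycling cells of all 4 types: 4456 against 2642 in effector-type CD8 T cells, 7885 against 4442 in NK cells, 3772 against 2495 in macrophages and 17660.5 against 7552 in fibroblasts. Cycling cells also had more UMIs in all, with medians of 24392.5 against 12956 in NK cells and 15149 against 8254 in effector-type CD8 T cells. Among effector-type CD8 T cells of 5000 to 10000 UMIs the log2 ratio of the shares was -0.46, beside -0.14 over all of them. As a mean over cells the macrophage ratio was 0.082, beside 0.16 from summed UMIs.

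Other genes of protein synthesis moved partly with the members. Of 26 translation factors measured, 15 were called higher and 5 lower in naive-type CD4 T cells than in macrophages, 14 and 2 in NK cells of library 1, and 12 and 2 in those of library 2, with medians of 0.74, 0.64 and 0.53. Of all genes, 20.1%, 21.5% and 21.8% were called higher and 49.1%, 33.3% and 36% lower in these comparisons, which also holds for the lists below. Eef1a1, the elongation factor that delivers aminoacyl-tRNA, had 6064 and 5838 CPM in NK cells and 3750 and 3690 CPM in macrophages. Eif4ebp1, which blocks the cap-binding factor eIF4E when mTOR is inactive, went the other way, with 11.8 and 15.7 CPM in NK cells and 98.0 and 148 CPM in macrophages. Fau, a fusion gene for a small-subunit protein that the name rule misses, was called higher in naive-type CD4 T cells (0.83) but not in NK cells (0.27 and 0.12).

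Ribosome assembly genes were mostly higher in NK cells than in macrophages. Of the biogenesis genes, 20 of 26 measured were called higher and none lower in NK cells of library 1, 22 of 29 and none in library 2, and 11 of 27 higher and 4 lower in naive-type CD4 T cells, with medians of 1.07, 1.00 and 0.49. Dkc1, the pseudouridine synthase of box H/ACA particles, had 82.9 and 95.1 CPM in NK cells, 17.7 and 19.1 CPM in macrophages and 25.2 CPM in naive-type CD4 T cells. Npm1, a nucleolar chaperone, had 1363 and 1677 CPM in NK cells, 525 and 640 CPM in macrophages and 1442 CPM in naive-type CD4 T cells. Nhp2, another H/ACA protein, had 134 and 209 CPM in NK cells, 64.4 and 99.6 CPM in macrophages and 29.0 CPM in naive-type CD4 T cells. Of the growth regulators, 1 of 9 and 1 of 10 measured were called higher in NK cells of library 1 and library 2 and 1 lower in each, with medians of -0.04 in both. The one higher was Myc, which drives ribosome production, at 52.6 and 21.2 CPM in NK cells and 7.82 and 5.48 CPM in macrophages. The one lower was Rps6ka1, a kinase downstream of ERK, at 59.2 and 44.4 CPM against 90.3 and 101 CPM. Mitochondrial ribosomal proteins, which belong to a separate ribosome, did not follow the cytosolic set in naive-type CD4 T cells: 3 of 74 (4.05%) were called higher and 54 lower, with a median of -1.01. In NK cells 19 of 75 (25.3%) and 15 of 77 (19.5%) were higher, near the share of all genes (21.5% and 21.8%). Only 3 were lower in each library, where 33.3% and 36% of all genes were. The medians were 0.37 and 0.35, and 61 of 75 and 64 of 77 lay above 0. With the median gene set to no change, the naive medians were -0.48 for mitochondrial ribosomal proteins, 1.01 for biogenesis genes and 1.26 for translation factors. Among cells of 5000 to 10000 UMIs the mitochondrial median in NK cells of library 2 was 0.11.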

How the data were processed

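The submitters' processing notes name Cell Ranger and the mm10 build, and the deposited matrix of both libraries holds raw UMI counts per gene and barcode (software version 3.1.0, per the file headers). Alignment settings and cell calling were not given in the sources read. Ribosomal protein genes, gene lists and comparisons were chosen with earlier results of these data known, and gate thresholds were set after marker distributions, though not ribosomal values, had been seen.

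Barcodes with over 10% mitochondrial UMIs were left out. Scrublet (scanpy 1.11.5) marked 0% as doublets by its own limit in either library, which is no working call, so the 5% of barcodes with the highest scores were removed instead (266 and 360). Marker gates assigned 2936 and 4810 cells; 354 and 670 cells that passed gates of more than 1 lineage, and 107 and 663 that passed none, stayed out, as did 1579 and 594 T cells outside the finer T cell gates. Counts were summed over cells of a gate and library, and divided by the total of all UMIs (CPM).

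Ratios have exact conditional binomial intervals and shares exact Clopper-Pearson intervals (scipy 1.17.1, numpy 2.4.6, pandas 2.3.3, Python 3.11.15), and figures used matplotlib 3.10.9. Genes with at least 100 UMIs in both groups together were measured. The calling rule was run on simulated counts that held counting error alone. Such counts cannot show how the rule fares with spread between cells or tumours. Named genes are the paralogs, stalk, 5S and fusion members, up to 10 members highest and 10 lowest relative to the set in a comparison, the 10 most abundant, those that differ most between types, and genes of the lists. Sequences are from RefSeq (GRCm38.p6). Overlap of transcript ends with copies was checked over the last 300 bases in GENCODE M21. The alternatives were a stricter mitochondrial limit, doublets kept, stricter gates, another denominator, means over cells, cells of 5000 to 10000 UMIs, subtraction of free RNA, size factors, no count minimum and a 2-fold limit. Free RNA was estimated from held-out markers of other lineages, so mRNA of these markers made by a gate's own cells counts as free RNA. A few genes are not reported here by name.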

Additional observations from a re-analysis of the deposited data

Results flagged for a closer look

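NK cells and effector-type CD8 T cells changed order between the libraries. The log2 ratio of the ribosomal protein share in NK cells to that in effector-type CD8 T cells was -0.048 in library 1 and 0.12 in library 2. The counting intervals lay on opposite sides of 0, but with 1 library per group the difference was not tested. With stricter marker gates the ratio in library 1 was 0.024, on the side of library 2. The gate of effector-type CD8 T cells held 60 cells in library 1 and 442 in library 2.

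Cycling and non-cycling cells differed in opposite directions between lineages of library 2. The log2 ratio was -0.14 in effector-type CD8 T cells and -0.11 in NK cells, and 0.16 in macrophages and 0.12 in fibroblasts. This difference between types was not tested either.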

How the results depend on the processing

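Of 29 share ratios between types or libraries, 26 kept their direction under up to 7 settings each. The others were monocytes (-0.069, library 1) and migratory dendritic cells (-0.14, library 2) against macrophages with free RNA subtracted, and NK against effector-type CD8 T cells of library 1 with stricter gates (0.024). No cycling ratio changed direction under the settings run. Naive-type CD4 T cells against macrophages gave 1.38 at 5% mitochondrial UMIs, 1.40 with stricter gates, 1.40 without mitochondrial genes and Gm42418, 1.45 as a mean over cells, 1.63 in cells of 5000 to 10000 UMIs and 1.51 with free RNA subtracted. In the same order, with doublets kept placed second, NK cells against macrophages of library 2 gave 0.93, 0.90, 0.95, 0.93, 0.98, 1.08 and 1.00, and in library 1 the values that moved were 0.94, 1.00, 0.93, 1.01 and 1.07. Library 1 against library 2 gave -0.090, -0.13, -0.12, -0.056, -0.12, -0.13 and -0.17 in macrophages, and, from stricter gates on, -0.070, -0.057, -0.14, -0.19 and -0.10 in NK cells.

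Cycling against non-cycling NK cells gave -0.10 at 5% mitochondrial UMIs, -0.11 with doublets kept, -0.11 with stricter gates and -0.10 as a mean over cells. Effector-type CD8 T cells gave -0.15 with stricter gates, -0.19 as a mean, -0.46 at matched depth and -0.15 with free RNA subtracted. Macrophages gave 0.17, 0.22, 0.17, 0.082 and 0.18 for 5% mitochondrial UMIs, doublets kept, stricter gates, mean and free RNA, and fibroblasts 0.13, 0.12, 0.13, 0.14 and 0.13, with 0.11 without mitochondrial genes and Gm42418. At matched depth the other 3 types had too few cells for a value.

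A 2-fold limit called 36 and 34 members higher in NK cells of library 1 and library 2 (11.3% and 12.6% of all genes), 0 higher between libraries in NK cells (3.79%) and 0 lower in NK cells of library 2 (26.8%). Size factors called 0 lower in NK cells of library 2 (32.5%) and 1 between libraries in NK cells (5.80%). Without a count minimum 2 were lower in NK cells of library 2 (27.4%). At matched depth 2 were lower between libraries in NK cells (10.5%), 2 in macrophages (8.71%) and 1 in naive-type CD4 T cells (31.7%).

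At matched depth the mitochondrial ribosomal protein median was 0.11 (NK, library 2), -0.47 and -0.46 (library 1 against library 2 in NK cells and macrophages) and -0.70 (naive), and the biogenesis median -0.42 (between libraries, NK). With size factors the mitochondrial medians were 0.50, -0.40 (between libraries, NK) and -0.48 (naive), the biogenesis medians 1.15 (NK, library 2), -0.32 (between libraries, NK) and 1.01 (naive), and the translation factor median 1.26 (naive).

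Relative to the set, 5 values changed sign: at matched depth Rpl13a to 0.19 (NK to macrophage, library 2), Rps18 to -0.11 (between libraries, macrophages) and Rps27 to 0.34 (NK to macrophage, library 1), and with free RNA subtracted Rps27 to 0.011 in that comparison and Rps27l to 0.048 (between libraries, macrophages). The cause was not tested. Matched depth left 40 NK cells and 40 macrophages in library 1. No paired analysis was possible because each group has 1 library. Without replicates, counting intervals say nothing of the spread between tumours.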
